A study of Mus musculus with 4 samples.

Results

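The aryl hydrocarbon receptor (AHR) pathway genes examined here were *Ahr*, *Ahrr*, *Arnt*, *Arnt2*, *Tiparp*, *Cyp1a1* and *Cyp1b1*, 7 of the 48526 genes in the count files. They were taken by gene symbol, and each matched 1 Ensembl gene. *Ahrr* was selected on its measured counts, which were absent in WT and present in KO2, so its difference is a description with no test. The other 6 genes were listed for their place in the pathway, with earlier results of these data known. RNA-seq was available for wild-type (WT) cells of R1, a mouse embryonic stem cell (ESC) line in long use, and for *Zfp296* CRISPR KO clone 2 (KO2). Each group had 2 replicates, and the methods state only that RNA was isolated in duplicate. KO2 is a single clone derived from R1 ESCs with CRISPR/Cas9, a guide to the first exon of *Zfp296* and puromycin selection, so an effect of the deletion and one of the clone cannot be told apart. According to the methods, R1 ESCs were kept on gelatine in serum with LIF, PD0325901 and CHIR99021, and no AHR ligand is named as a treatment. The question was whether *Ahrr* goes together with its receptor and with other genes that AHR activates.

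AHR is a ligand-activated transcription factor of the bHLH-PAS family. Without ligand it is held in the cytoplasm by a chaperone complex with HSP90 and p23, and with ligand it enters the nucleus, pairs with ARNT and binds DNA at the xenobiotic response element, whose core is GCGTG. Its targets include the cytochromes P450 CYP1A1 and CYP1B1, which oxidise many AHR ligands, and 2 genes whose products limit the receptor: AHRR, which resembles AHR, also pairs with ARNT and represses, and TIPARP, which ADP-ribosylates AHR.

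The sequence shared by these targets can be seen upstream of them. RefSeq promoter sequences (GRCm38.p6, a later build than the mm9 used for the counts) were available for *Ahrr*, *Arnt*, *Arnt2*, *Tiparp*, *Cyp1a1* and *Cyp1b1*, and the 250 bases before the start site are shown for the 4 targets, since these are the genes whose joint behaviour was asked about. Capitals mark GCGTG or its reverse complement CACGC:
Ahrr, chr13:74292332-74292581, minus strand: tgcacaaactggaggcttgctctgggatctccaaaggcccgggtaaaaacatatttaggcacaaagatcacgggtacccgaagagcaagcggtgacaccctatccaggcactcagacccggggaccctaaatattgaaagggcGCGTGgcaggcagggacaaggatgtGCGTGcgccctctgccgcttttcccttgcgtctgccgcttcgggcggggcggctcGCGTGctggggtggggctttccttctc
Tiparp, chr3:65528197-65528446, plus strand: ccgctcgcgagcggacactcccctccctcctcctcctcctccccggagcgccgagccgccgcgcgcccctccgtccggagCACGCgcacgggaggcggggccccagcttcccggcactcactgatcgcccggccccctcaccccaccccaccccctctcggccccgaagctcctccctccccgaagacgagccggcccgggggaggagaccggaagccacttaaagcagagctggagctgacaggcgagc
Cyp1a1, chr9:57697363-57697612, plus strand: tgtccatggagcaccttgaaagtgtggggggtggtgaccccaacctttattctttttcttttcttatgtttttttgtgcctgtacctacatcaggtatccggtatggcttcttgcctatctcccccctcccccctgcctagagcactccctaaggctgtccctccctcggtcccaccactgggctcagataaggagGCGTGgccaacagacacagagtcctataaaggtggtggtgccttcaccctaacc
Cyp1b1, chr17:79715062-79715311, minus strand: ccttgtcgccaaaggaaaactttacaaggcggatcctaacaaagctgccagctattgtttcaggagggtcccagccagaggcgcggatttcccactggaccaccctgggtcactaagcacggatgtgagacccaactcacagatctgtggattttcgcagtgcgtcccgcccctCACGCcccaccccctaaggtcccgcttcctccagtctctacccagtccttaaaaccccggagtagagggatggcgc

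The *Ahrr* window held 3 matches, which is reached by 2.77% of the 32851 promoter windows of this length, and *Tiparp*, *Cyp1a1* and *Cyp1b1* held 1 each, which is reached by 28.2%. *Arnt* also held 1 match and *Arnt2* none. G and C made up 60.4% of the *Ahrr* window, compared to a median of 52.4% over all windows. A match says only that these letters are present, and more distant elements were not searched.

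Reads counted on genes summed to between 2829914 and 4334499 in WT and between 7437294 and 7470907 in KO2, so both KO2 libraries were the deeper ones. *Zfp296* itself (chromosome 7, 20162636 to 20166005, plus strand, mm9) had 31 counts in each WT library and 416 and 282 in KO2, that is 9.44 ± 2.99 and 45.2 ± 10.6 CPM (counts per 1e6 of the TMM-scaled library size; SD, n = 2). Its transcript was thus higher in the libraries labelled KO2, with a log2 fold change of 2.31 (SE 0.29, adjusted p = 4.64e-05, edgeR), a call that was lost when every gene with a count was tested (adjusted p = 0.0573). Counts per gene do not show a small frameshift, so they do not check the label. According to the methods the clonal lines were examined by sequencing, which was not analysed here, and WT and KO2 stand for the libraries so labelled throughout. The 8 pluripotency markers examined summed to between 5677 and 6108 CPM in all 4 libraries, with 1 of them, *Sox2*, lower in KO2. The 8 fibroblast markers summed to 2.14 to 5.67 CPM, with *Postn*, *Dcn* and *Lum* at 0 everywhere, and primitive endoderm and trophoblast markers to at most 10.7 CPM. Primed epiblast markers summed to 79.8 and 76.6 CPM in WT and 102 and 96.9 CPM in KO2. Neural or mesoderm markers summed to 97.6 and 86.7 CPM in WT and 115 and 122 CPM in KO2. Both sums were higher in KO2, but they came mostly from *Otx2* and *Dnmt3b* and from *Nes* (92.1 and 117 CPM). Only 3 of 5 and 1 of 6 markers were tested, and none passed. Besides *Otx2*, *Dnmt3b* and *Nes*, the tested *Pou3f1* and the untested *Sox3* had lower means in KO2. The untested *Pax6* and *Foxf1* had higher ones, and *Fgf5*, *Olig2*, *T* and *Mesp1* had no count. Of 5 tested Y-linked genes, 4 were higher in KO2, compared to 2.6% of all tested genes. None exceeded 1 count in a WT library, while the highest count in a KO2 library was 2197. They passed the filter through KO2 alone, so these calls are a description. These libraries therefore differ in more than *Zfp296*, and the part of that difference in the results below was not tested.

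*Ahrr*, the AHR repressor (ENSMUSG00000021575, chromosome 13, 74348566 to 74429779, minus strand, mm9), was detected in both KO2 libraries and in neither WT library. Neither WT replicate had a count, while KO2 replicates 1 and 2 had 19 and 23 counts, or 2.41 and 3.07 CPM. The mean KO2 level of 2.74 ± 0.47 CPM (SD, n = 2) would have given 7.36 and 11.6 counts at the depth of the WT libraries, in which none were seen. With 3 counts in each WT library as the limit of detection (1.12 and 0.709 CPM), the lower KO2 library was 2.16-fold above the higher limit. With 3 counts over both WT libraries together as the limit, it was 5.55-fold above. These limits allow for counting error in WT only, and the KO2 counts were taken as measured. As *Ahrr* was selected on these counts, the folds are descriptions. In bulk RNA, a few cells with much *Ahrr* and many cells with little of it cannot be told apart.

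**Figure D1:**
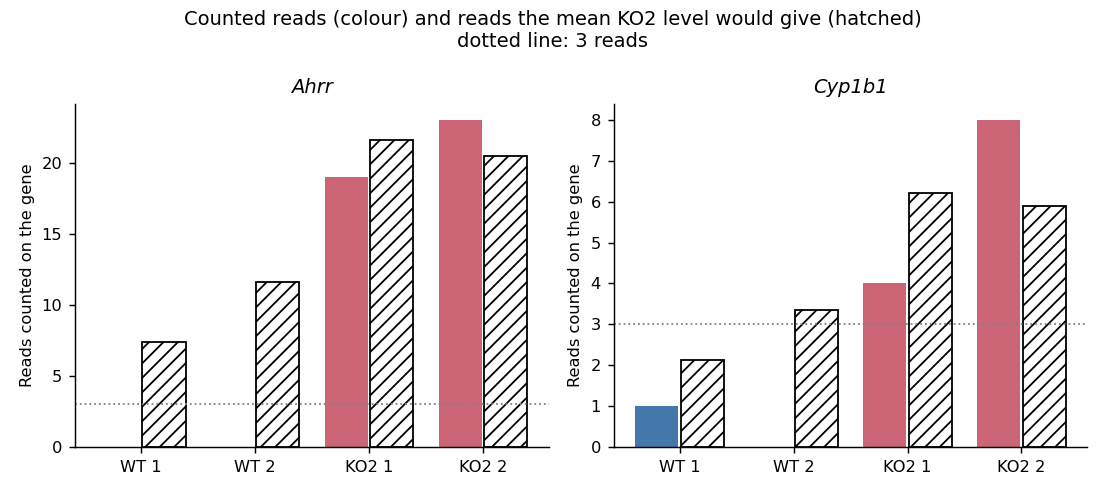
Raw reads counted on *Ahrr* and *Cyp1b1* in each library (coloured bars: WT blue, KO2 red) beside the reads that the mean KO2 level would give at that library's depth (hatched), with a dotted line at 3 reads. For *Ahrr* the WT libraries are at 0 where 7.36 and 11.6 reads correspond to the KO2 level, while for *Cyp1b1* the KO2 level corresponds to only 2.12 and 3.34 reads in WT.

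The receptor lay on the other side. *Ahr* (chromosome 12, 36182646 to 36219710, minus strand) was counted 30 and 60 times in WT, against 59 and 72 times in KO2, which gave 11.2 and 14.2 CPM compared to 7.48 and 9.62 CPM. Both KO2 libraries lay below both WT libraries. The log2 fold change was -0.60 (SE 0.36, 95% interval -1.35 to 0.16) and did not pass the test (quasi-likelihood F test of edgeR, Benjamini-Hochberg adjusted p = 0.391 over 12883 genes). The interval is wide, so a lower *Ahr* level was neither shown nor excluded at this depth.

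*Arnt*, the partner that both AHR and AHRR need to bind DNA, had the smallest fitted difference of the tested members. Its counts were 209 and 350 in WT, against 698 and 580 in KO2, giving 77.9 and 82.7 CPM compared to 88.5 and 77.5 CPM, so the groups overlapped. Its log2 fold change was 0.05 (SE 0.15, 95% interval -0.26 to 0.35, adjusted p = 0.905, edgeR).

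*Arnt2*, a paralogue of *Arnt* known mainly from neural tissue, was much lower. WT had 8 and 23 counts and KO2 43 in each library, which gave 2.98 and 5.43 CPM compared to 5.45 and 5.75 CPM. WT replicate 2 was almost level with KO2, and the low WT mean came from replicate 1. The log2 fold change was 0.33 (SE 0.51, 95% interval -0.74 to 1.4, adjusted p = 0.79, edgeR).

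**Figure D2:**
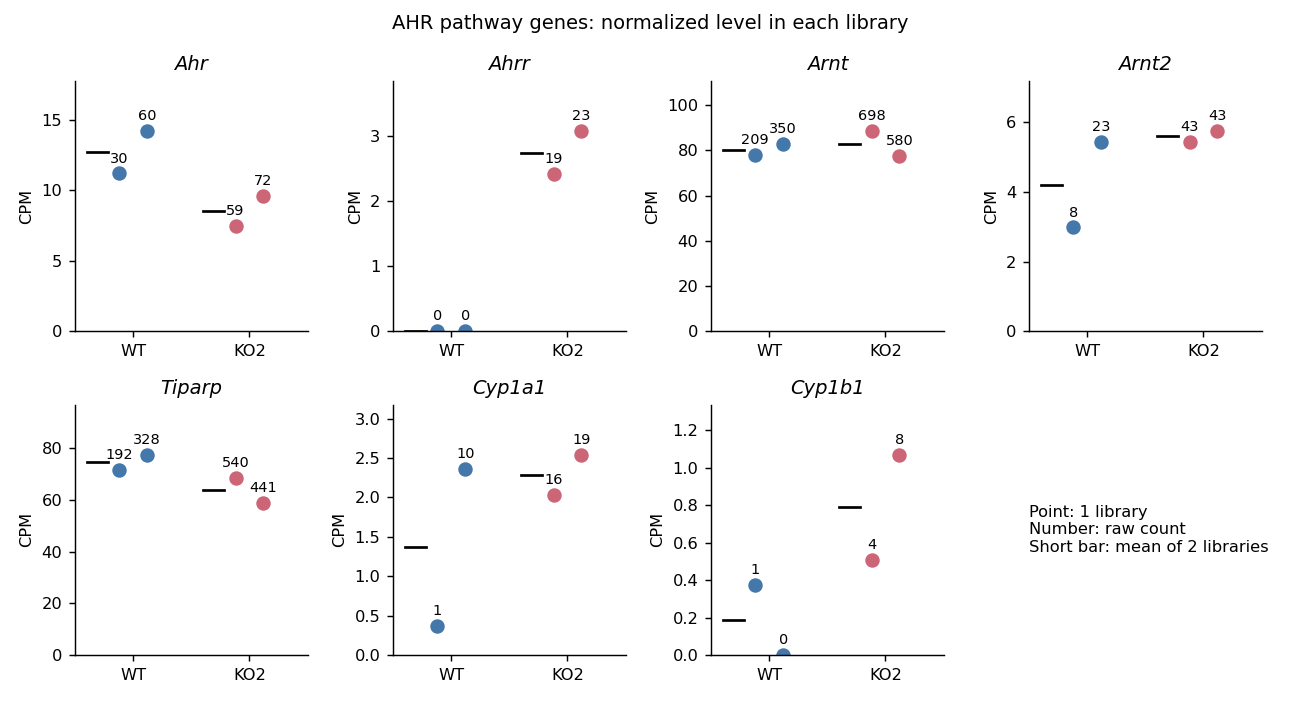
CPM of each AHR pathway gene in the 2 WT and the 2 KO2 libraries (points), with the raw count above each point and the group mean as a short bar; axes differ between genes and start at 0. *Ahrr* is the gene with no reads in WT, *Ahr* and *Tiparp* lie lower in KO2, and *Arnt* overlaps between groups.

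Of the other AHR targets among the 7, *Tiparp* was the best covered. Its counts were 192 and 328 in WT, against 540 and 441 in KO2, giving 71.6 and 77.5 CPM compared to 68.5 and 58.9 CPM. Like *Ahr*, it lay lower in both KO2 libraries, with a log2 fold change of -0.23 (SE 0.15, 95% interval -0.55 to 0.09, adjusted p = 0.455, edgeR). The interval thus reaches a rise of at most 0.09 on the log2 scale. *Tiparp* shares 223 exonic bases with *4931440P22Rik* on the other strand, a gene with 2 to 15 counts per library, and how the counting treated strand is not given in the sources used here.

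*Cyp1a1*, the classical AHR target, had few counts in every library. There were 1 and 10 in WT, against 16 and 19 in KO2, giving 0.373 and 2.36 CPM compared to 2.03 and 2.54 CPM. WT replicate 2 fell between the KO2 replicates, so the groups overlapped. The log2 fold change was 0.52 (SE 0.79, 95% interval -1.12 to 2.17, adjusted p = 0.785, edgeR) and rested on WT replicate 1: without it the value was -0.05, and without WT replicate 2 it was 2.55 (SE 1.54, adjusted p = 0.419).

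*Cyp1b1* was the lowest of the targets and did not pass the filter on low counts. WT replicate 1 had 1 count and WT replicate 2 none, against 4 and 8 in KO2, giving 0.373 and 0 CPM compared to 0.507 and 1.07 CPM. Both KO2 libraries were above both WT libraries. The ratio of 12 to 1 counts, scaled by library size, was 5.4, with a counting interval (95%, exact) of 0.799 to 231, and at the KO2 level only 2.12 and 3.34 counts would be seen in WT. A difference in *Cyp1b1* was therefore neither shown nor excluded at this depth. With 2 against 2 libraries an exact two-sided permutation test cannot give less than 0.333.

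None of the 5 members other than *Ahrr* that could be tested was significant (0 of 5 with edgeR, 0 at an unadjusted p under 0.05, and 0 with DESeq2, which gave no adjusted p for *Cyp1a1*). Over all 12883 tested genes the shares were 5.64% with edgeR and 19.4% at an unadjusted p under 0.05. Their log2 fold changes had a median of 0.05, compared to 0.013 over all tested genes. The 2 groups did not overlap for 3 of the 5, which was the case for 48.8% of all tested genes: *Arnt2* was higher in both KO2 libraries (25.4% of all tested genes) and *Ahr* and *Tiparp* lower (23.4%). *Ahrr* passed the filter on low counts through its KO2 libraries alone. A rise beside that of *Ahrr* was thus not detected for its receptor, *Tiparp* or *Cyp1a1*.

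Levels per length put the members in much the same order in both groups. In WT, *Tiparp* came first with 18.7 ± 1.06 CPM per kb of exon, followed by *Arnt*, *Ahr* with 2.05 ± 0.343, *Arnt2* with 0.703 ± 0.29 and *Cyp1a1* with 0.522 ± 0.537 (SD, n = 2). In KO2 the order began with *Tiparp* at 16.0 ± 1.69 CPM per kb, *Arnt* at 10.4 ± 0.971, *Ahr* at 1.39 ± 0.245, *Arnt2* at 0.935 ± 0.0348 and *Cyp1a1* at 0.872 ± 0.138, followed by *Ahrr* with 0.294 ± 0.0504 and *Cyp1b1* with 0.151 ± 0.0763 (SD, n = 2). *Arnt2* and *Cyp1a1* did not differ beyond their spread in either group. In both KO2 libraries *Ahrr* was below its receptor.

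The wider pathway was examined with 58 further genes in 5 lists, of which 36 passed the filter and 10 had no count in any library. With edgeR, 2 of the 36 rose and 3 fell in KO2, compared to 2.6% and 3.04% of all tested genes, and the median log2 fold change was -0.04. An unadjusted p under 0.05 (edgeR) was found for 11 of the 36, *Acmsd* among them, compared to 19.4% of all tested genes. Of the 3 that fell, *Acmsd* and *Aldh3a1* reached the filter's level in both libraries of WT only. *Acmsd*, with 0 and 1 counts in KO2, had to differ, and its call is given as a description. Without *Acmsd*, 2 genes rose and 2 fell. The other genes that hold or stabilise the receptor did not pass the test (0 of 4 with edgeR and DESeq2, 0 at an unadjusted p under 0.05). Over all tested genes 5.64% passed with edgeR and 19.4% had an unadjusted p under 0.05, and DESeq2 passed 507 of 11384 genes. *Hsp90ab1*, an HSP90 gene, was at 2478 ± 36.3 CPM in WT against 2728 ± 340 in KO2. *Ptges3*, which encodes p23, was at 518 ± 36.4 and 501 ± 33.5 CPM (SD, n = 2).

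Of the 12 additional AHR targets, 6 had no count in any library, among them *Ugt1a6a* and *Gsta1*, and 5 were tested, of which 1 rose and 1 fell. Over all tested genes 2.6% rose and 3.04% fell. An unadjusted p under 0.05 (edgeR) was found for 3 of the 5, compared to 19.4% of all tested genes. *Nqo1*, a quinone reductase that is a target of both AHR and NRF2, was counted 150 and 232 times in WT, against 677 and 673 times in KO2. It rose from 55.4 ± 0.765 to 87.9 ± 2.91 CPM (SD, n = 2), 1.59-fold (log2 0.67, SE 0.15, adjusted p = 0.0115, edgeR). *Aldh3a1*, an aldehyde dehydrogenase of the same AHR-regulated set, moved the other way, with 24 and 34 counts in WT and 13 and 10 in the deeper KO2 libraries. It fell from 8.49 ± 0.644 to 1.49 ± 0.22 CPM (SD, n = 2), 5.55-fold lower in KO2 (log2 -2.47, SE 0.55, adjusted p = 0.0107, edgeR). *Aldh3a1* passed the filter through WT. With at least 10 counts required in every sample it was still called (adjusted p = 0.0026, edgeR). The remaining 3 did not pass. *Nfe2l2*, which encodes NRF2, had 102 ± 0.907 and 134 ± 0.622 CPM (adjusted p = 0.0894, edgeR). *Gsta2*, which passed the filter through KO2 alone, had 4, 1, 20 and 14 counts in WT replicates 1 and 2 and KO2 replicates 1 and 2. *Vav3*, which reached the filter's level in both libraries of WT only, had 11, 16, 13 and 12 counts in the same order. *Cyp1a2*, next to *Cyp1a1* in the genome, had 4 counts in WT replicate 1 and 0 in the others.

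Of the 14 co-regulators, all tested, 1 rose and 1 fell, compared to 2.6% and 3.04% of all tested genes. An unadjusted p under 0.05 (edgeR) was found for 5 of the 14, compared to 19.4% of all tested genes. *Ankra2*, an ankyrin-repeat protein that binds AHRR as a co-repressor, was counted 66 and 70 times in WT, against 57 and 68 times in the deeper KO2 libraries. It fell from 20.6 ± 5.7 to 8.16 ± 1.32 CPM (SD, n = 2), 2.46-fold lower in KO2 (log2 -1.30, SE 0.33, adjusted p = 0.0256, edgeR), while the histone deacetylases *Hdac4* and *Hdac5* of the same repressor had log2 fold changes of -0.10 (SE 0.25) and -0.04 (SE 0.25) that did not pass (adjusted p = 0.88 and 0.953, edgeR). *Ncoa3*, a co-activator of AHR and nuclear receptors, rose from 218 ± 2.02 to 293 ± 1.62 CPM (SD, n = 2), 1.34-fold (log2 0.42, SE 0.11, adjusted p = 0.0294, edgeR). *Ncoa1*, *Ncoa2*, *Ep300* and *Crebbp* had log2 fold changes of 0.18, 0.14, 0.16 and 0.31, none of which passed. On the other side, *Med1*, a subunit of the Mediator complex, had 115 ± 5.87 CPM against 88.5 ± 3.21 CPM (SD, n = 2; log2 -0.37, adjusted p = 0.124, edgeR), and *Rb1*, *Rela* and *Relb* had log2 fold changes of -0.70, -0.50 and -0.39, which did not pass either.

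Among 15 bHLH-PAS relatives, 8 were tested and none was significant (0 with edgeR and DESeq2, 1 at an unadjusted p under 0.05). Over all tested genes these shares were 5.64% with edgeR and 19.4% unadjusted, and DESeq2 passed 507 of 11384 genes. Few calls would thus be made among 8 genes in any case. The 1 relative under an unadjusted p of 0.05 was *Epas1*, a hypoxia-inducible factor that also pairs with ARNT. It was counted 37 and 55 times in WT against 172 and 173 times in KO2, with a log2 fold change of 0.75 (SE 0.28, adjusted p = 0.132, edgeR). *Hif1a* had 302 ± 13.4 and 271 ± 36.2 CPM (SD, n = 2, adjusted p = 0.525, edgeR).

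Of 13 tryptophan and kynurenine enzymes, whose pathway supplies AHR ligands such as kynurenine, 5 were tested. The 1 past the threshold was *Acmsd*, where 5.64% of all tested genes passed. An unadjusted p under 0.05 (edgeR) was found for 2 of the 5, *Acmsd* among them, compared to 19.4% of all tested genes. The enzymes that start the pathway were hardly seen: *Ido1* had no count, *Ido2* 2 counts in all and *Tdo2* at most 4 counts in a library. *Acmsd*, which acts far down the same pathway, was counted 7 and 8 times in WT, against 0 and 1 times in KO2, and passed the filter through WT alone. Scaled by library size the ratio of its 15 to 1 counts was 33.3. The ratio rests on 1 count in KO2 and is a description, since only its WT level let the gene pass the filter.

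These 5 calls, of which that of *Acmsd* is a description, depended on settings and libraries. When every gene with a count was tested, none of them passed (adjusted p = 0.127 to 0.224, edgeR). With ERCC spike-in normalization *Aldh3a1* alone passed (adjusted p = 0.0166, edgeR). *Acmsd* gave no value without either WT replicate. Of the other 4, none passed without WT replicate 1, *Ankra2* alone did without WT replicate 2, and *Ncoa3* was lost without any single replicate. Without KO2 replicate 1 *Ankra2* was lost as well (adjusted p = 0.0911, edgeR), and *Acmsd* was lost without either KO2 replicate (adjusted p = 0.391 and 0.192, edgeR) and with the older quasi-likelihood method (adjusted p = 0.0528, edgeR). All 5 kept their direction under every alternative that gave a value.

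**Figure D3:**
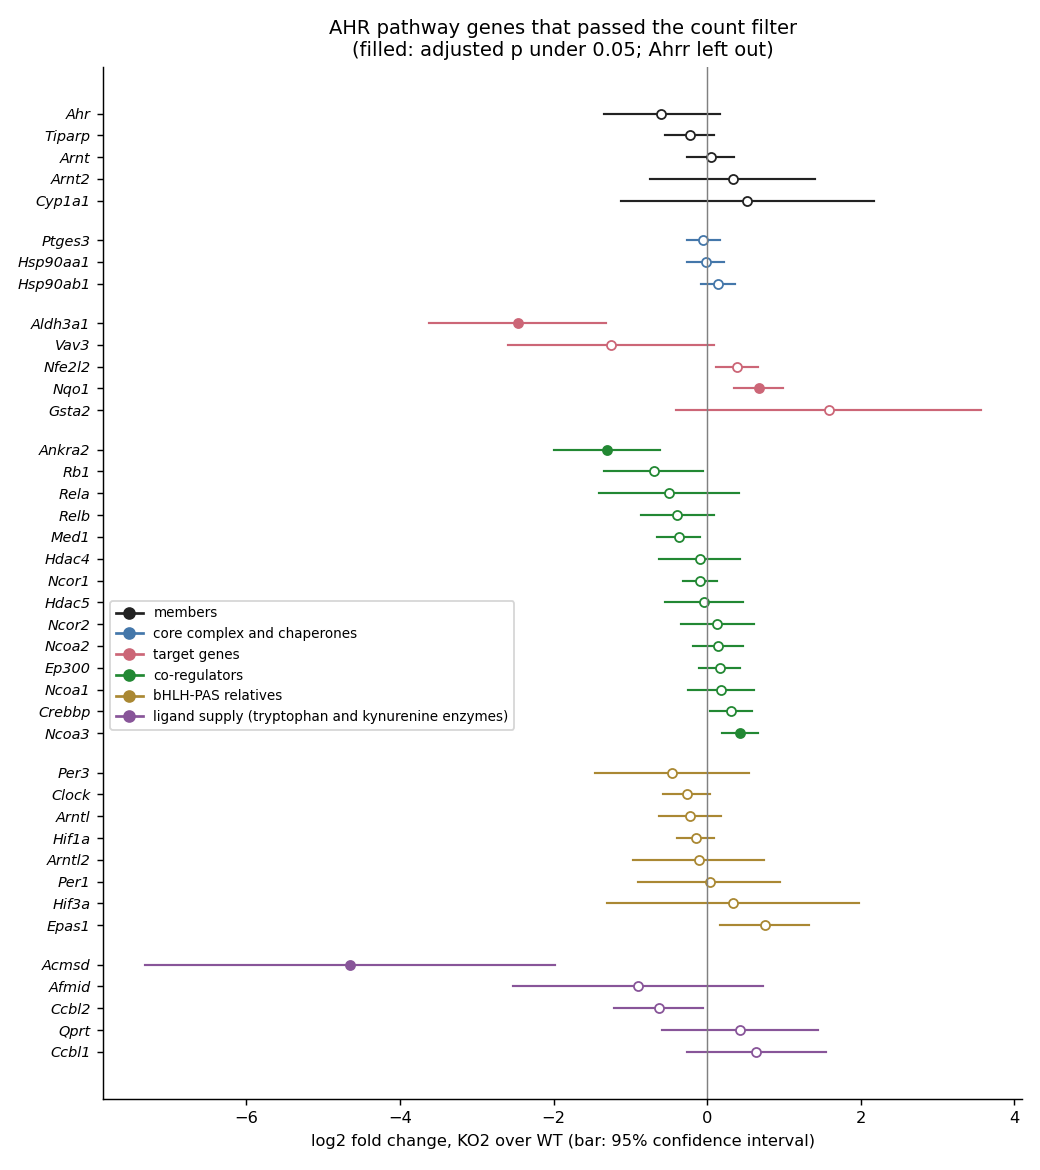
Log2 fold change of KO2 over WT (points) with 95% confidence intervals (bars) for the 5 tested members other than *Ahrr* and the tested genes of the wider pathway except 1 not reported here, coloured by list; filled points have an adjusted p under 0.05. The members all span 0, *Nqo1* and *Ncoa3* lie to the right, and *Aldh3a1*, *Ankra2* and *Acmsd* lie to the left. *Acmsd*, with 16 counts in all, passed the filter through WT alone, so its point is a description.

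Of 24 annotated genes within 500 kb of *Ahrr*, 14 were tested (0 significant with edgeR and DESeq2, 1 at an unadjusted p under 0.05). Over all tested genes these shares were 5.64% with edgeR and 19.4% unadjusted, and DESeq2 passed 507 of 11384 genes. Few calls would thus be made among 14 genes in any case. The neighbours had log2 fold changes from -0.29 to 0.88 and a median of 0.1. *Exoc3*, an exocyst subunit gene on the same strand that starts 2417 bp beyond the end of *Ahrr*, was counted 159 and 262 times in WT, against 511 and 535 times in KO2 (log2 fold change 0.17, SE 0.16). *Pdcd6*, which encodes a calcium-binding protein, lies on the other side and was counted 157 and 233 times in WT, against 505 and 467 times in KO2 (log2 fold change 0.16, SE 0.16). The 1 gene under an unadjusted p of 0.05 was *Gm10116* (log2 fold change 0.50, SE 0.15, adjusted p = 0.0647, edgeR). No annotated gene overlaps *Ahrr*.

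**Figure D4:**
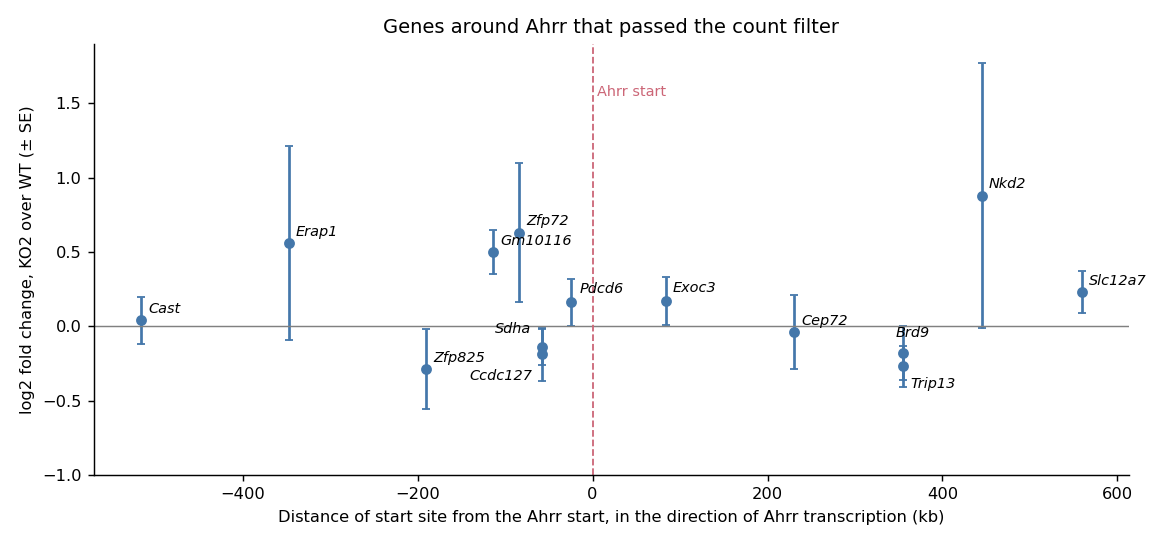
Log2 fold change of KO2 over WT (± SE) for the 14 tested genes within 500 kb of *Ahrr*, by the distance in kb of their start site from that of *Ahrr*, with positive distances in the direction of *Ahrr* transcription. The values lie between -0.29 and 0.88, and the genes on either side, *Pdcd6* and *Exoc3*, are at 0.16 and 0.17.

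The pattern of *Ahrr* was shared by few tested genes. Of 4650 genes with no count in WT and at least 1 in KO2, 10 passed the filter, and *Ahrr* was number 5 among them by its KO2 counts. The 5 nearest to it in log2(CPM + 0.5) over the 4 libraries were *Ccdc65* with 20 and 18 counts in KO2, the Y-linked *Zfy1* with 13 and 24, *Hist3h2a* with 15 and 16, *Gm6658* with 19 and 14 and *Havcr1* with 13 and 13. Their distances from *Ahrr* were 0.3, 0.44, 0.52, 0.59 and 0.8 log2 units. In the other direction, no tested gene had counts in WT and none in KO2, where the libraries were deeper.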

How the data were processed

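RNA was isolated in duplicate, depleted of ribosomal RNA and made into strand-specific libraries. Per the methods and the submitters' processing notes, the authors used HISAT2 with the mm9 genome for mapping, HTSeq for counts per gene and DESeq2; versions, annotation and counting options are not given in the sources used here. The deposited values are raw counts per Ensembl gene for each replicate, with 92 ERCC rows and 5 HTSeq summary rows that were kept out of library sizes and tests. In these, 35.61% to 40.38% of reads were not uniquely aligned and 15.19% to 18.23% fell on no gene.

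Symbols, coordinates and exon lengths came from GENCODE M1 (NCBIM37, the same assembly as mm9), which held 32782 of the 48526 gene identifiers, and older symbols from the RefSeq table. Genes were filtered with filterByExpr (minimum count 10, minimum total 15), normalized by TMM and tested with edgeR 4.0.16 (R 4.3.3, glmQLFit with legacy=FALSE, glmQLFTest) with condition as the only term, Benjamini-Hochberg adjustment and a threshold of 0.05. The SE was derived from the fold change and F statistic. The fit was tested on simulated counts. The groups were taken from the labels; where nothing says how replicates were grown, p-values measure the spread between these samples. Replicates differed by more than sampling noise (chi-square per gene 5.919 in WT and 21.28 in KO2). Named genes were the 7 members, *Zfp296*, pathway genes past the threshold and those needed for a role, tested genes within 500 kb of *Ahrr* and the 5 tested genes nearest to its pattern. 1 gene of the lists is counted but not reported here. The members and lists were chosen with earlier results of these data known. Alternatives were RLE and ERCC normalization, other filters, DESeq2 1.42.0, the older quasi-likelihood method, a replicate block, removal of Y-linked, mitochondrial and small RNA genes, and leaving out each replicate.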

Additional observations from a re-analysis of the deposited data

How the results depend on the processing

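Of the 12 alternatives to the fit, those that kept both replicates of each group found no tested member significant. *Ahrr* was left out of this. *Cyp1a1* had no test with DESeq2, and neither *Cyp1a1* nor *Arnt2* had one with at least 10 counts in every sample. The members' median log2 fold change was -0.20 over the 3 left by that filter and ranged from -0.05 to 0.13 otherwise. *Arnt* was at -0.05 without KO2 replicate 1 and *Cyp1a1* at -0.05 without WT replicate 1, both of which reversed a small positive value; *Cyp1a1* was at 2.55 without WT replicate 2. Of the wider pathway, 5 genes were significant as reported, 1 with ERCC normalization, 0 when all genes with a count were tested, and 0 to 3 when 1 replicate was left out. Over all tested genes, 726 were significant as reported, 163 with ERCC normalization, 61 without the filter and 270, 420 and 466 without WT replicate 1, WT replicate 2 and KO2 replicate 1; without the filter the median log2 fold change of all genes was 0.124 instead of 0.013. The causes were not tested. The fold of *Ahrr* in KO2 over the WT limit of detection was 2.16 to 3.4 when 1 replicate was left out. It was 5.55 with 3 counts over both WT libraries. Deviations of samples with the same replicate number correlated at -0.009497. No shared effect of the replicate number was seen by this measure, which cannot show whether the samples were prepared in pairs. With the replicate block, 0 members, 5 pathway genes and 946 of all tested genes were significant. The WT depth limits *Cyp1a1*, *Cyp1b1* and *Ahrr* most: 3 counts correspond to 1.12 and 0.709 CPM there and to 0.38 and 0.401 CPM in KO2.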
